A study of Homo sapiens with 35 samples.

Results

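RNA polymerase II (RNA Pol II) sites that appeared outside promoters when U-87 MG cells were treated with TWEAK are described here. The U-87 MG line is an established line derived from a human glioblastoma, and TWEAK is a cytokine related to TNF. The RNA Pol II peaks of 4 libraries of control cells, 2 untreated and 2 treated with TWEAK, were merged where they overlapped, which gave 70348 sites on chromosomes 1 to 22 and X. Of these, 54315 had their centre outside the promoter windows, which ran from 1000 bp upstream to 100 bp downstream of every transcript start in GENCODE. The 1058 gained sites were selected on having a peak in both TWEAK libraries and in neither untreated library. This presence and absence, and the strength of the peaks in the 4 control libraries, is therefore the choice itself and not a finding. The gained sites are set beside 785 sites outside promoters chosen the opposite way (lost sites, with a peak in both untreated libraries only) and 3789 constant sites with a peak in all 4 libraries.

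The cells were starved and then kept for 48 h with or without 10 ng/ml TWEAK. RNA Pol II ChIP-seq covered 4 groups of 2 libraries, namely untreated control, TWEAK-treated control, and TWEAK-treated cells with CRISPR/Cas9-mediated knockdown (KD) of *ETS1* or of *NFKB2*. RNA-seq covered the same 4 groups with 3 replicates each. p52 ChIP-seq was made in untreated and TWEAK-treated control cells and in TWEAK-treated cells with *ETS1* KD by guide 1 or guide 2, and ETS1 ChIP-seq in untreated and TWEAK-treated control cells, with 2 libraries per group. Neither KD was measured without TWEAK. The KD cells carry a lentiviral CRISPR vector, the labels do not say which guide was used for RNA Pol II ChIP-seq and RNA-seq, and whether the KD cells are pools or single clones is not given in the sources used here.

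RNA Pol II transcribes protein-coding genes and many long non-coding RNAs. It is loaded at promoters, often pauses just downstream of the start site, and then travels through the gene body and for some distance past the gene end before it is released. It is also found at active enhancers, where it makes short transcripts. TWEAK acts through the receptor TNFRSF12A and stabilises the kinase NIK, which leads to the processing of p100, the product of *NFKB2*, to p52. p52 enters the nucleus with RelB and binds κB sequences. ETS1 is a transcription factor that binds sequences with a GGAA core.

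The reference sequences at gained sites that also held a p52 site show where p52 binding and newly called RNA Pol II peaks met. Each run is 61 bases of the plus strand of hg38 centred on the summit of the stronger p52 peak of the TWEAK libraries, and capitals mark the match to the κB consensus nearest to the summit, read on either strand. The summit can lie next to the RNA Pol II site, as it does in ENSG00000250481.
CD83, chr6:14117695-14117755: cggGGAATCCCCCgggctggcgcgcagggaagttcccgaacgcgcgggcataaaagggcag
LINC02541, chr6:113631263-113631323: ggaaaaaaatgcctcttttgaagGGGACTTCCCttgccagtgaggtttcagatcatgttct
intergenic between CCDC124 and KCNN1, chr19:17948014-17948074: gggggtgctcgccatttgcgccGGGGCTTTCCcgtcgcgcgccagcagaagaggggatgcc
ENSG00000250481, chr5:5026126-5026186: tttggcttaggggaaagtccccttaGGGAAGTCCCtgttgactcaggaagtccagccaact
TMEM273, chr10:49177531-49177591: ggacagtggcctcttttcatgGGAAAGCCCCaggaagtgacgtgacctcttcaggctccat
ADGRG1, chr16:57643402-57643462: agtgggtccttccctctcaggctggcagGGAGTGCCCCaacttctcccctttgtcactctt
These members were taken from the 15 with the most significant p52 peaks, of which 8 held a κB match in the run. In *LINC02541*, *TMEM273* and *ADGRG1*, in ENSG00000250481 and beside *KCNN1*, the centre of the match lay within 4 bp of the p52 summit. In *CD83*, which encodes a surface marker of activated immune cells, it lay -22 bp from the summit of replicate 2, while the summit of replicate 1 fell on its first base. The summit of replicate 2 itself fell in the stretch gggaagttccc, which was not a match to the consensus used. The *CD83* RNA Pol II site was promoter-proximal, with its centre 122 bp downstream of a start site. A match of letters is a description and does not show that p52 contacts it.

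Of the 1058 gained sites, 830 lay in a gene body (78.4%, exact 95% binomial confidence interval 75.8 to 80.9%), of which 742 were in protein-coding genes, 80 in lncRNA genes and 8 in others. Introns held 673 gained sites (63.6%), exons 157 (14.8%), and 228 were intergenic (21.6%). Gene bodies held 75.7% of the lost sites (interval 72.5 to 78.6%) and 74.5% of the constant sites (interval 73.1 to 75.9%). The interval of the gained sites overlaps that of the lost sites and lies close to that of the constant sites, and such intervals describe counting error alone because sites are no replicates. Where genes overlapped, the host was taken as the protein-coding gene first, and 141 gained sites lay in more than 1 gene, so that their host is uncertain.

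The gained sites lay toward the ends of genes. In protein-coding hosts, 18.9% of them fell in the last 10% of the gene length and 9.16% in the first 10%, with a median position 65.3% of the way through. Constant sites had the opposite order, with 13.1% in the last and 25.6% in the first 10% and a median position of 41.0%. Lost sites resembled the gained sites, with 18.9% in the last and 8.88% in the first 10% and a median of 62.7%. The median distance from a gained site to the nearest start of any transcript was 5265 bp (quartiles 2184 and 12406 bp), against 7338 bp for lost and 3944 bp for constant sites. Of the 228 intergenic gained sites, 99 (43.4%) lay within 5000 bp past the end of a protein-coding or lncRNA gene, against 41.9% of intergenic lost and 40.1% of intergenic constant sites.

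**Figure D1:**
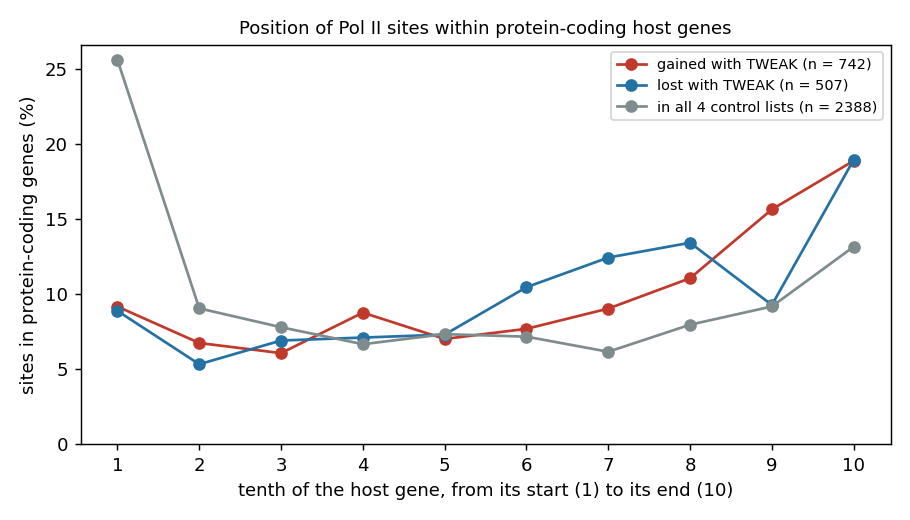
Position of RNA Pol II sites within protein-coding host genes. The x axis divides each gene into 10 equal parts from start to end, the y axis gives the percentage of the sites of each kind, and lines join the parts for gained (742 sites), lost (507) and constant (2388) sites. Constant sites peak in the first part (25.6%), gained and lost sites in the last (18.9% each).

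Gained sites were narrow and weak, which is bound up with the rule and is a description. A constant site merges peaks of 4 libraries, and a gained or lost site those of 2. Gained sites had a median width of 487.5 bp, close to that of lost sites (476 bp) and below that of constant sites (1446 bp). By the fold enrichment over background that the peak caller gave at the summit, their median was 4.51 in TWEAK replicate 1 (2.46 to 22.7) and 4.34 in replicate 2 (2.70 to 11.4), while constant sites had medians of 7.89 and 6.71 in the same libraries. In replicate 1, 0.756% of the gained sites ranked among the strongest 10% of the list, and in replicate 2 none of them (0%) did. The files give no read counts for peaks. The depth behind a peak is therefore unknown, and a signal below the calling threshold cannot be seen.

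The rule turns on single lists and on single bases at its edges. A further 1587 sites outside promoters had a peak in both TWEAK libraries and in untreated replicate 2 only, and 441 in both and in untreated replicate 1 only. The member nearest to a promoter window lay in *HLCS*, with its centre 104 bp downstream of a start site (fold enrichment 3.57 and 4.66 in the TWEAK libraries), followed by one in *PPA1* at 110 bp (5.15 and 6.53). Just inside the window were a gained promoter site at *EBAG9P1*, at -1000 bp (4.58 and 3.96), and one at *TSLP*, at 97 bp (5.30 and 4.14). There were 22 members within 100 bp of a window and 153 within 900 bp, so part of them are promoter-proximal.

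The strongest gained site, by the weaker of its q-values in the TWEAK libraries, lay at *BIRC3* (chr11:102316532-102319013, hg38), which encodes the apoptosis inhibitor cIAP2. Its fold enrichment was 19.7 in TWEAK replicate 1 and 10.6 in replicate 2. Its centre lay 210 bp downstream of the nearest transcript start, and it covered the start of the gene. The next were in introns of ENSG00000285458, annotated as protein-coding (chr4:86910552-86911309, 13.5 and 11.4), and of the lncRNA gene ENSG00000253824 on chromosome 8 (11.3 and 9.53). Others were in *PTPRN2*, a receptor-type phosphatase gene (12.1 and 8.32), in an exon of *MARCKSL1*, a MARCKS family gene (22.7 and 8.43), and in *PSG9*, a pregnancy-specific glycoprotein gene (8.72 and 8.03). The site in *MARCKSL1* was promoter-proximal, 155 bp downstream of a start site. Another 3 of the 10 strongest were intergenic, with *RNU5B-3P*, *ERGIC1* and *LINC01623* as the nearest genes. At each of the 10 strongest sites both *ETS1* KD libraries had an RNA Pol II peak. *NFKB2* KD replicate 1 had one at all but the *PTPRN2* and *RNU5B-3P* sites, and *NFKB2* KD replicate 2, the shortest list, only at the *ERGIC1* site.

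The KD libraries took no part in the selection. Of the 1058 gained sites, 345 (32.6%, interval 29.8 to 35.5%) and 393 (37.1%, interval 34.2 to 40.1%) had an RNA Pol II peak in *ETS1* KD replicates 1 and 2. In *NFKB2* KD replicates 1 and 2 it was 368 (34.8%, interval 31.9 to 37.7%) and 41 (3.88%, interval 2.80 to 5.22%). *NFKB2* KD replicate 2 had 11175 peaks in all, against 24710 and 29785 in the *ETS1* KD libraries and 30310 in *NFKB2* KD replicate 1. The part of list length in its low share was not tested for this library by itself. With all 8 RNA Pol II lists cut to equal numbers of strongest peaks, 210 gained sites remained. Of these, 63.3% had a peak in either *ETS1* KD list and 55.7% in either *NFKB2* KD list. Over all 1058 gained sites, the mean share per library was 34.9% ± 3.21 (SD, n = 2) for *ETS1* KD and 19.3% ± 21.9 (SD, n = 2) for *NFKB2* KD. The difference was smaller than the spread between the *NFKB2* KD libraries (exact permutation test over libraries, two-sided p = 0.667), and with 2 libraries against 2 the test cannot go below 0.333.

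Per KD, 516 gained sites (48.8%, interval 45.7 to 51.8%) had a peak in either *ETS1* KD library and 385 (36.4%, interval 33.5 to 39.4%) in either *NFKB2* KD library. A peak in both libraries was found at 222 (20.98%) and 24 (2.27%) of them. None of the 4 KD libraries had a peak at 434 gained sites (41.0%), and all 4 had one at 14 (1.32%). Constant sites, which were wider and had stronger peaks, had a peak in either library at 92.1% for *ETS1* KD and 91.6% for *NFKB2* KD. Lost sites were as weak as the gained ones, with median fold enrichments of 4.43 and 4.35 in the untreated libraries. In the *ETS1* KD libraries 18.5% and 22.8% of the lost sites had a peak, below the intervals of the gained sites, while in the *NFKB2* KD libraries 32.7% and 3.06% did, within those intervals. Sites are not replicates, and no test over libraries was made of these differences.

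**Figure D2:**
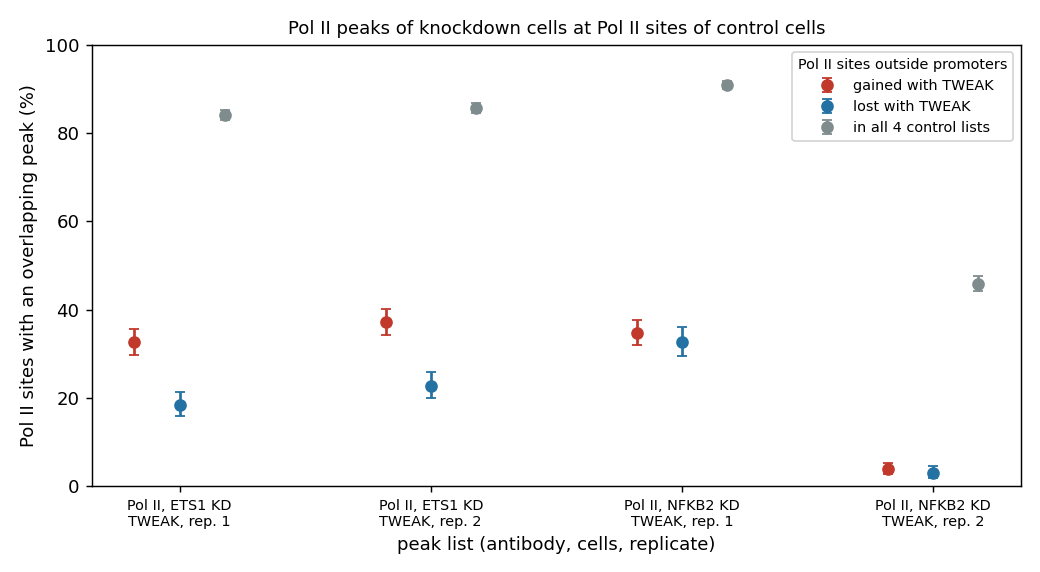
Share of gained, lost and constant RNA Pol II sites outside promoters (y axis, %) that overlapped an RNA Pol II peak in each KD library (x axis). Points are shares and bars exact 95% binomial intervals, which cover counting error only. Gained sites lie at 32.6%, 37.1%, 34.8% and 3.88%, below the constant sites in each library.

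The gained sites lay in 616 different genes, of which 531 were protein-coding. Most hosts held 1 gained site (501 genes), 78 held 2 and 37 held 3 or more. In the count table, 614 were found, and 537 had enough counts to be tested. Those left out had a median total of 5 counts over the 12 libraries. Tested host genes were long, with a median gene length of 61.6 kb against 25.9 kb for all genes tested, 51.7 kb for hosts of constant sites and 108 kb for hosts of lost sites. A merged site centred in a promoter window of the host was present in all 4 control libraries for 270 host genes (43.8%) and in both TWEAK libraries only for 17 (2.76%). No site was centred there for 153 (24.8%), which does not mean that none reached the start, as the *BIRC3* site shows.

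*NRG1*, which encodes the growth factor neuregulin 1, held the most gained sites, 19 in a gene of 1216 kb on chromosome 8. They began 911 kb from the annotated start and ended at 1144 kb. A gained site in a promoter window, not counted in the 19, lay within this stretch at 1109.5 kb. The number of RNA Pol II peaks called in the gene was 7 and 8 in the untreated libraries and 63 and 113 in the TWEAK libraries. It was 110 and 134 in the *ETS1* KD libraries, and 35 and 2 in the *NFKB2* KD libraries. Both *NFKB2* KD libraries thus lay below both *ETS1* KD libraries. The control counts were part of what chose *NRG1* and are a description. Per 10000 peaks of the library, *NRG1* held 14.1 and 41.9 with TWEAK, 44.6 and 45.1 in *ETS1* KD and 11.6 and 1.80 in *NFKB2* KD. Of the 19 gained sites, 13 and 14 had a peak in the *ETS1* KD libraries and 5 and 0 in the *NFKB2* KD libraries. *NRG1* RNA was at 36.6, 40.7 and 45.3 CPM, the counts scaled to a library of a fixed effective size, in the untreated, 92.4, 104 and 148 in the TWEAK-treated, 100.2, 135 and 145 in the *ETS1* KD and 84.4, 43.3 and 83.1 in the *NFKB2* KD libraries. The treated control libraries did not overlap the untreated ones. In such bulk samples, less RNA per cell and fewer cells with that RNA cannot be told apart. The log2 change with TWEAK was 1.49 ± 0.25 (SE) (adjusted p = 0.0067 from edgeR). Against the TWEAK-treated control it was 0.14 in *ETS1* KD and -0.71 in *NFKB2* KD, with adjusted p-values of 0.934 and 1.00 from edgeR. Without a filter on low counts edgeR called the latter (adjusted p = 0.0144), while the other alternatives gave 0.633 to 1.00.

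**Figure D3:**
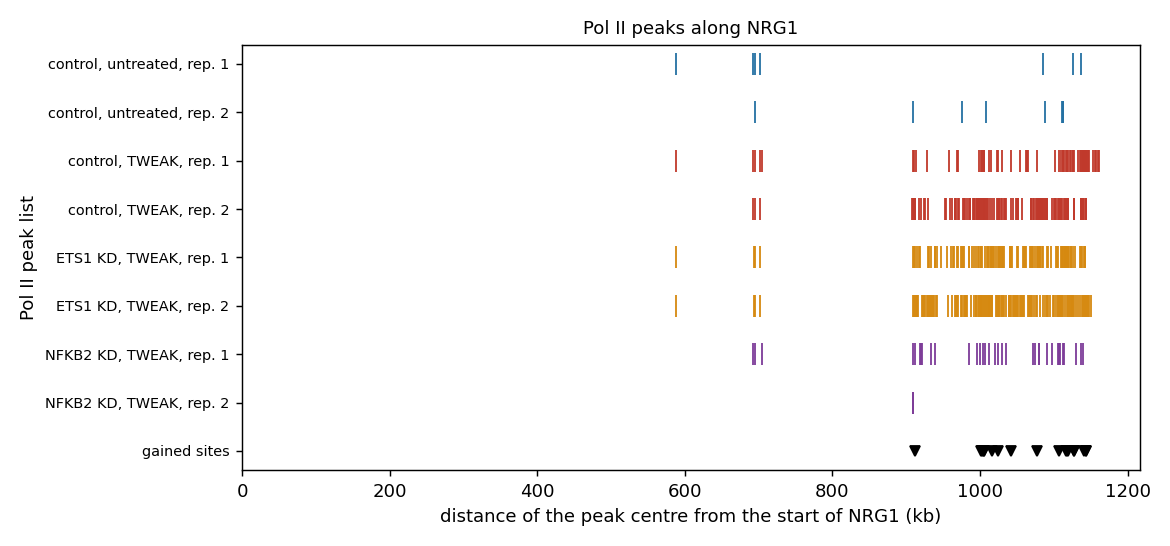
RNA Pol II peaks along *NRG1*. The x axis is the distance of a peak's centre from the annotated start in kb, each row is a library, each tick is a peak and triangles are the 19 gained sites. The ticks fill the last part of the gene in the TWEAK (63 and 113 peaks) and *ETS1* KD (110 and 134) libraries and are fewer in the untreated (7 and 8) and *NFKB2* KD (35 and 2) libraries.

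The other hosts with the most gained sites fell into genes whose RNA was raised and genes whose RNA was not. *RFX8*, a gene of the RFX transcription factor family, held 8 gained sites, and its RNA rose by a log2 change of 1.10 ± 0.22 (adjusted p = 0.0196 from edgeR), a call lost without TWEAK replicate 2 or 3 or untreated replicate 1 or 2 (adjusted p-values from 0.0823 to 0.117). *CSMD2*, *NBPF10* and *ZMIZ1* held 8, 8 and 7, with log2 changes of 0.08, 0.36 and 0.07 that did not pass the test (adjusted p-values of 0.959, 0.488 and 0.976 from edgeR). *HIPK2*, *KYNU* and *PALM2AKAP2* held 6 each, and 5 each were in *GFPT2*, *MAP1B*, *MOCS2*, *NBPF14*, *NBPF19* and *TRIO*. NBPF genes are near-identical copies of each other, so that the 22 gained sites in them cannot be placed with certainty. Among tested hosts with 3 or more gained sites, 4 of 37 were raised (10.8%; *NRG1*, *RFX8*, *GFPT2* and *BIRC2*) and 0 lowered by edgeR. Of hosts with 1 and with 2 gained sites 5.35% and 4.29% were raised, against 1.55% of all genes tested.

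In some cases the gained sites in 1 gene lay behind the end of a neighbour whose RNA was raised. All 5 gained sites in *MOCS2*, a molybdenum cofactor gene on the minus strand, lay 4.05 to 13.0 kb past the end of *ITGA2*, an integrin gene on the plus strand, whose RNA rose by 1.39 on the log2 scale (adjusted p = 0.0087 from edgeR). *MOCS2* RNA itself changed by -0.12 (adjusted p = 0.806 from edgeR). *MOCS2* held 1 and 1 RNA Pol II peaks in the untreated libraries and 8 and 9 in the TWEAK libraries, and 6, 7, 6 and 0 in the *ETS1* KD and *NFKB2* KD libraries. The 3 gained sites in *BIRC2* lay 11.1 to 26.1 kb past the end of *BIRC3* on the same strand, and cannot be assigned to 1 of these genes. The 3 gained sites in *TMEM123* and 1 intergenic site lay 3.04 to 28.3 kb past the end of *BIRC2*, with a log2 change of 0.17 in *TMEM123* RNA (adjusted p = 0.758 from edgeR). *ITGA2* and *TMEM123* were named after their values were seen. Of all 1058 gained sites, 49 (4.63%, interval 3.45 to 6.08%) lay within 50 kb past the end of a gene raised by TWEAK and 4 (0.378%, interval 0.103 to 0.965%) past the end of a lowered gene. Lost sites had the opposite order, with 5 of 785 (0.637%) past raised and 20 (2.55%) past lowered genes. Constant sites had 67 of 3789 (1.77%) and 44 (1.16%).

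The RNA of host genes was compared between TWEAK-treated and untreated control cells. Of the 537 tested host genes, 30 rose (5.59%) and 5 fell (0.931%) at an adjusted p under 0.05 (edgeR), against a background of 1.55% raised and 1.53% lowered among all 16879 genes tested. The median log2 change of the hosts was 0.11, against 0.02 for all genes. The hosts of constant sites had 73 raised and 35 lowered of 1673 (4.36% and 2.09%, median 0.05), and those of lost sites 6 raised and 20 lowered of 405 (1.48% and 4.94%, median -0.01). The hosts of gained and of constant sites thus both had more raised genes than the background, while hosts of lost sites had more lowered ones. No test of these differences was made. The number of hosts called fell from 35 to 17 without TWEAK replicate 3, 18 without untreated replicate 2, 19 without untreated replicate 1 and 22 without TWEAK replicate 2. In these settings raised hosts still outnumbered lowered ones (17 and 0, 17 and 1, 18 and 1, 21 and 1).

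*BIRC3* had the largest rise. Its RNA was at 4.52, 3.53 and 1.97 CPM in the untreated libraries and at 166, 153 and 202 in the TWEAK-treated libraries. It was at 115, 217 and 208 CPM in *ETS1* KD and at 56.9, 26.3 and 65.1 in *NFKB2* KD. The log2 change with TWEAK was 5.71 ± 0.42 (SE) (adjusted p = 2.9e-05 from edgeR), and the *NFKB2* KD libraries lay between the untreated and the TWEAK-treated control libraries, without overlap. The fitted change in *NFKB2* KD against the TWEAK-treated control was -1.81 ± 0.34, which did not pass the test (adjusted p = 0.194 from edgeR). The call depended on the method, with an adjusted p of 0.00013 from DESeq2 and of 9.4e-24 from edgeR without a filter on low counts, and 0.203 to 0.938 in the other alternatives.

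*IL34*, a ligand of the CSF1 receptor, rose by a log2 change of 4.14 ± 0.52, from 0.139, 0.215 and 0.281 CPM to 2.73, 4.51 and 4.19 CPM (adjusted p = 0.0009 from edgeR). *IL1B*, which encodes the inflammatory cytokine interleukin-1β, rose by 2.38 ± 0.24, from 4.66, 4.89 and 4.25 CPM to 23.8, 18.9 and 29.0 CPM (adjusted p = 0.0002 from edgeR). In both genes the treated libraries lay above all untreated ones. *NFKB2*, the gene of p100 and p52, rose by 2.35 ± 0.18 and held a gained site in an intron near its end (chr10:102401126-102402127). *ZSWIM4* rose by 1.69 and the antisense RNA *LYPLAL1-AS1* by 1.71, and antisense RNAs are uncertain here because the strand setting of the counting is not given. *ALDH1A3*, a retinoic acid-producing dehydrogenase, rose by 1.59 ± 0.14 (adjusted p = 0.0001 from edgeR). *CDK6*, a kinase of the G1 phase, rose by 1.52 ± 0.30 (adjusted p = 0.0158 from edgeR), and lost the call without TWEAK replicate 3 (adjusted p = 0.0746) or without untreated replicate 1 or 2 (0.0606 and 0.0536).

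**Figure D4:**
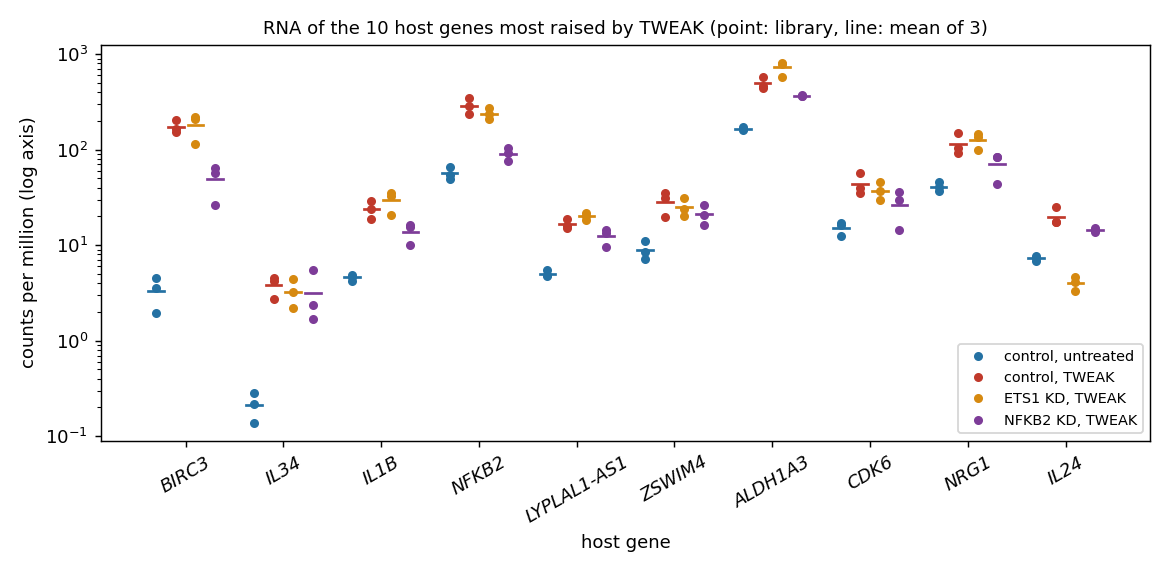
RNA of the 10 host genes with the largest rise with TWEAK. The y axis is CPM on a log scale, points are libraries, lines are means of 3 and colours are the 4 groups. In each gene the 3 TWEAK-treated control libraries lie above the 3 untreated libraries, and *IL24* is low in *ETS1* KD (3.31 to 4.63 CPM).

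The 5 hosts whose RNA fell were *FAXDC2* (-1.25), *PDE5A* (-0.90), *ADCY8* (-0.74), *CNIH3* (-0.62) and *CRYBG1* (-0.44) on the log2 scale, with adjusted p-values from 0.0078 to 0.0448 (edgeR). *PDE5A* encodes a cGMP phosphodiesterase and *ADCY8* an adenylate cyclase. These calls were weak. Those of *FAXDC2*, *ADCY8*, *CNIH3* and *CRYBG1* were lost when any 1 of the 6 libraries was left out, with adjusted p-values from 0.0677 to 0.205. *PDE5A* was lost without TWEAK replicate 3 (adjusted p = 0.0501).

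For the KD comparisons, both of which share the TWEAK-treated control libraries with the TWEAK comparison, the targeted genes were looked at first. *ETS1* RNA was at 71.9, 73.1 and 87.6 CPM in TWEAK-treated control and 28.2, 33.0 and 37.8 CPM in *ETS1* KD libraries, and *NFKB2* RNA at 235, 289 and 346 CPM in control and 75.6, 92.6 and 104.9 CPM in *NFKB2* KD libraries, so both checks matched the labels. In untreated control, *ETS1* was at 42.0, 41.3 and 45.1 CPM and *NFKB2* at 49.6, 54.5 and 66.6 CPM. The *ETS1* KD libraries thus lay below the untreated level of *ETS1*, while the *NFKB2* KD libraries lay above that of *NFKB2*. In *ETS1* KD, 1 of the 537 hosts rose (0.186%) and 13 fell (2.42%), against a background of 0.255% raised and 1.13% lowered among all genes. The targeted gene *ETS1* is 1 of these 13. Of the hosts of constant sites, 9 of 1673 rose (0.538%) and 36 fell (2.15%) in *ETS1* KD. Of the hosts of lost sites, 1 of 405 rose (0.247%) and 7 fell (1.73%). The share of lowered genes was thus above the background in these hosts too, and was not particular to hosts of gained sites. No test of these differences was made. In *NFKB2* KD, 0 of the 537 hosts of gained sites rose (background 0.00592%) and 1 fell (0.186%, background 0.0237%) by edgeR, and this gene was *NFKB2* itself. DESeq2 called 0 raised and 2 lowered, and at an unadjusted p under 0.05 edgeR had 10 higher and 22 lower. The median log2 change of the hosts was 0.02 in *ETS1* KD and -0.05 in *NFKB2* KD, against 0.01 and -0.02 over all genes.

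*IL24*, an interleukin of the IL-10 family, rose with TWEAK by 1.44 ± 0.17 and fell by 2.31 on the log2 scale in *ETS1* KD (adjusted p = 3.2e-05 from edgeR). It was at 7.33, 6.92 and 7.75 CPM in untreated, 17.4, 17.4 and 24.9 CPM in TWEAK-treated and 3.31, 4.63 and 4.09 CPM in *ETS1* KD libraries, all of which lay below the untreated ones. RNA Pol II peaks in *IL24* numbered 1 and 1 in the untreated and 5 and 3 in the TWEAK libraries, and 0, 0, 0 and 1 in the *ETS1* KD and *NFKB2* KD libraries, and its gained site (chr1:206902487-206903072) had no peak in any of the latter 4.

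*GFPT2*, an enzyme of the hexosamine pathway, was the host that rose in *ETS1* KD. It was at 155, 153 and 177 CPM in untreated, 277, 288 and 358 CPM in TWEAK-treated and 435, 539 and 570.1 CPM in *ETS1* KD libraries, without overlap of these groups. It rose with TWEAK by 0.93 ± 0.13 and again in *ETS1* KD by 0.74 ± 0.13 (adjusted p = 0.0025 and 0.0133 from edgeR). The second call was lost without *ETS1* KD replicate 2 or 3 or TWEAK replicate 1 or 2 (adjusted p-values from 0.0667 to 0.0931). Of its 5 gained sites, 5 and 4 had a peak in the *ETS1* KD and 0 and 0 in the *NFKB2* KD libraries.

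Hosts that fell in *ETS1* KD included *SESN2* (-1.37), a stress-induced regulator of mTORC1, which held 2 gained sites in introns (chr1:28271776-28272089 and chr1:28275708-28276509), neither with a peak in any KD library. *HERPUD1* (-1.24) and *DNAJB9* (-0.90), which act in endoplasmic reticulum stress, and *GARS1* (-0.74), a glycyl-tRNA synthetase gene, also fell, and were named after their values were seen. The *DNAJB9* call was lost without *ETS1* KD replicate 1 or 3 or any 1 TWEAK control library (adjusted p-values from 0.0689 to 0.184). Among the listed genes of the amino acid and unfolded protein response, 8 of 14 tested fell in *ETS1* KD and 0 rose (edgeR), against 1.13% lowered of all genes. Only *SESN2* and *SLC7A11* of the 14 were hosts, and *SLC7A11* did not pass the test (adjusted p = 0.279 from edgeR, 1.5e-06 without a filter on low counts and 0.129 to 0.578 in the other alternatives). The 13 hosts that fell in *ETS1* KD held 17 gained sites, 1 of them that of *ETS1* itself, which had a peak in both *ETS1* KD libraries. Of these 17, 2 and 3 (11.8% and 17.6%) had a peak in the *ETS1* KD and 1 and 0 (5.88% and 0%) in the *NFKB2* KD libraries, and 13 (76.5%) had none in any KD library.

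The gained sites in the 30 hosts raised by TWEAK were different in this respect. Of their 64 sites, 38 and 40 (59.4% and 62.5%) had a peak in the *ETS1* KD libraries and 23 and 0 (35.9% and 0%) in the *NFKB2* KD libraries. Only 8 (12.5%) had none in any KD library, against 302 of the 679 gained sites in other tested hosts (44.5%). In these other hosts the shares were 29.6% and 32.4% in *ETS1* KD and 34.0% and 3.83% in *NFKB2* KD. Without the 19 sites of *NRG1*, the raised hosts had 55.6% and 57.8% in *ETS1* KD and 40.0% and 0% in *NFKB2* KD. The shares in raised hosts were above those in other hosts in both *ETS1* KD libraries, but close to them in *NFKB2* KD replicate 1 and below them in replicate 2. Sites of 1 gene are not independent, no test was made of these shares, and the setting without *NRG1* was added after seeing the data.

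The listed NF-κB and TWEAK genes were examined for gained sites. Among 13 genes of NF-κB subunits and inhibitors, *NFKB2* and *TNIP1* were hosts, and 8 of the 13 rose with TWEAK, where 1.55% of all genes tested rose, the background also for the lists below. *TNIP1*, which encodes the A20-binding inhibitor ABIN1, held 2 gained sites and rose by 0.60 ± 0.12 (adjusted p = 0.0213 from edgeR), a call that was lost without TWEAK replicate 2 or 3 or untreated replicate 1 or 2 (adjusted p-values from 0.0835 to 0.135). Among 12 genes of TWEAK receptor signalling, *BIRC2* and *BIRC3* were hosts and 6 rose. *BIRC2*, which encodes cIAP1, held 3 gained sites. RNA Pol II peaks in *BIRC2* numbered 1 and 0 in untreated and 16 and 5 in TWEAK libraries, 9 and 12 in *ETS1* KD and 2 and 0 in *NFKB2* KD libraries. *BIRC2* RNA rose by 1.34 ± 0.25 (adjusted p = 0.0129 from edgeR, 0.0527 without TWEAK replicate 3).

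Among 20 chemokines and cytokines, 16 were tested and 9 rose, and 4 were the host of or the nearest gene to a gained site. Apart from *IL1B* these were *CXCL3* and *CXCL8*, both neutrophil chemokines, with intergenic gained sites 2146 and 6116 bp downstream of their nearest start, and *CSF1*. The centres of these sites lay 85, 2969 and 3158 bp past the ends of *CXCL3*, *CXCL8* and *CSF1*, and the *CXCL3* site reached into the gene. *CXCL3* rose by 2.54 ± 0.33 and *CXCL8* by 1.68 ± 0.23 (adjusted p = 0.0011 and 0.0017 from edgeR), and *CSF1* had a log2 change of 0.01. Among 18 adhesion, matrix and protease genes, 16 were tested and 5 rose, and *TNC* (0.23) and *VCAM1* were hosts, of which *VCAM1* had between 0 and 0.245 CPM and was not tested. *FOSL1* was nearest to a gained site among 10 AP-1 genes, of which 9 were tested and 1 rose, and had a log2 change of 1.21 (adjusted p = 0.0793 from edgeR, 0.0069 from DESeq2). *ETS1* and *ELK3* were hosts among 15 ETS genes, of which 13 were tested and 2 rose. *ETS1* rose by 0.86 ± 0.15 (adjusted p = 0.0076 from edgeR) and held 1 gained site (chr11:128512511-128512898). None of the 12 listed genes of MHC class I presentation, of which 2 rose, was the host of or nearest gene to a gained site.

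p52 was then looked for at the gained sites. A p52 site found in both TWEAK p52 libraries overlapped 31 of the 1058 gained sites (2.93%, interval 2.00 to 4.13%), against 6 of the lost sites (0.764%, interval 0.281 to 1.66%) and 218 of the constant sites (5.75%, interval 5.03 to 6.54%). In untreated cells 5 gained sites had a p52 site in both libraries (0.473%). The gained sites were thus above the lost ones and below the constant ones. Constant sites were also wider (median 1446 bp against 487.5 bp for gained sites). Any overlap of 1 bp or more was counted, and the part of width in this order was not tested. The median distance from a gained site to the nearest p52 site was 141 kb, and 418 (39.5%) had one within 100 kb. These distances were not computed for lost or constant sites, so they do not show a nearness particular to gained sites. By single library, 7 and 5 gained sites had a p52 peak in untreated cells and 30 and 72 in TWEAK-treated cells (2.84% and 6.81%). These lists held 714, 452, 3579 and 11761 peaks. Per 1000 p52 peaks on the chromosomes used, 12.6 and 13.8 gained sites were overlapped in untreated and 8.72 and 6.17 in TWEAK-treated cells. The untreated rates rest on only 7 and 5 gained sites, and the part of list length in the higher shares with TWEAK was not tested. The *BIRC3* site had no p52 peak in TWEAK replicate 1 and one in TWEAK replicate 2.

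**Figure D5:**
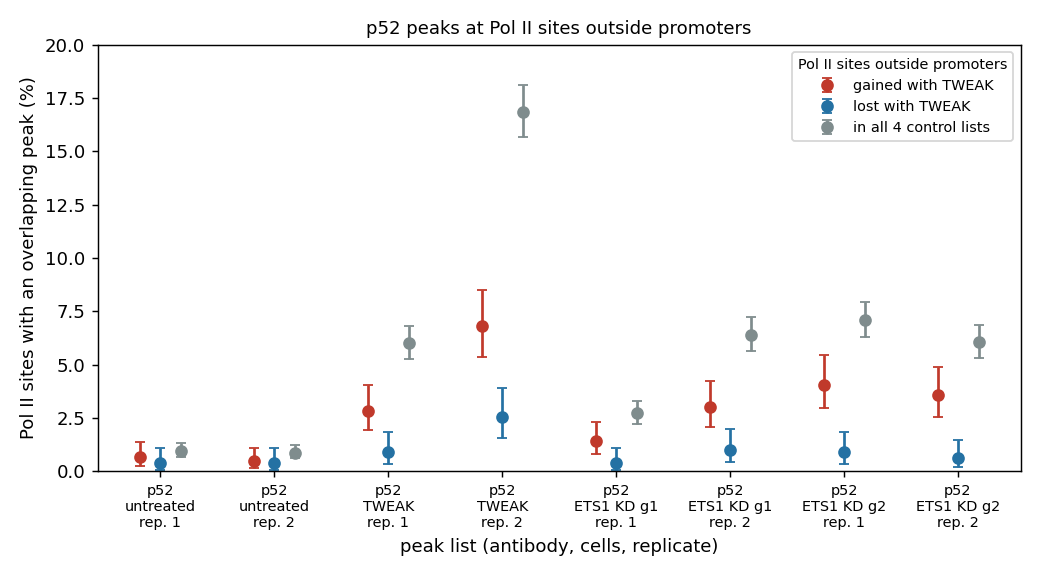
Share of gained, lost and constant RNA Pol II sites outside promoters (y axis, %) that overlapped a p52 peak in each p52 library (x axis, g1 and g2 being the guides against *ETS1*). Points are shares and bars exact 95% binomial intervals, which cover counting error only. Gained sites are at 0.662% and 0.473% in untreated cells, whose lists are short (714 and 452 peaks), and at 2.84% and 6.81% with TWEAK (3579 and 11761 peaks), and lie between lost and constant sites in each TWEAK library.

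Of the 31 gained sites with p52, 22 lay in a gene body, 21 of them in introns, and 9 were intergenic. Beside *CD83*, *LINC02541*, *TMEM273* and *ADGRG1* they included sites in *LINC02357*, *CEACAM16-AS1*, *ARPC1B*, an Arp2/3 complex gene, and *TMEM212*. At *CD83*, where the site was promoter-proximal, the RNA Pol II fold enrichment was 20.4 and 7.25 and the p52 fold enrichment 19.3 and 36.7. At *LINC02541* they were 7.49 and 5.08 for RNA Pol II and 24.5 and 45.6 for p52. The host genes numbered 21, of which 15 were tested for RNA, 1 rose (background 1.55% of all genes, and 5.59% of all hosts of gained sites) and 0 fell with TWEAK. The host that rose was *CD82*, a tetraspanin gene, with a log2 change of 0.87 (adjusted p = 0.0077 from edgeR), named after its values were seen. Its call was lost without TWEAK replicate 3 or untreated replicate 1 or 2 (adjusted p-values from 0.0547 to 0.0631). At an unadjusted p under 0.05, edgeR had 4 of the 15 higher and 0 lower, and DESeq2 called 1 raised and 0 lowered.

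Several of these 31 lay in the ribosomal RNA region of chromosome 21, where 4 of them were found between 8258707 and 8443121 bp. These 4, an intergenic site on chromosome 5 whose nearest start, that of *EMB*, was 801861 bp away, and an intergenic site next to ENSG00000290397 on chromosome 22 were the only ones of the 31 with a peak in any ETS1 library, and they had one in all 4 ETS1 libraries, untreated included. Of the 31, 5 also had a p52 peak in untreated cells. Ribosomal RNA genes are near-identical copies, so that reads and peaks there are uncertain. Without the gained sites that had an untreated p52 peak, 26 of 1051 (2.47%) had a p52 site, a setting added after seeing the data.

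In *ETS1* KD cells, p52 sites in both libraries of a guide were found at 13 of the 31 with guide 1 and at 27 with guide 2. A p52 peak in at least 1 library of the guide was present at 25 and 29. The guide 1 libraries had 1387 and 3897 p52 peaks in all, against 4252 and 3938 with guide 2 and 3579 and 11761 in control cells, and the part of list length in these counts was not tested. The RNA Pol II peaks of KD cells at the 31 sites numbered 13 and 11 in *ETS1* KD and 15 and 3 in *NFKB2* KD libraries, and 8 sites (25.8%) had none, against 41.5% of the gained sites without p52.

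ETS1 sites were rare. An ETS1 site found in both TWEAK libraries overlapped 10 gained sites (0.945%, interval 0.454 to 1.73%), and one found in both untreated libraries overlapped 10 as well. Lost sites had 3 (0.382%) and constant sites 157 (4.14%, interval 3.53 to 4.83%) with TWEAK. Constant sites were wider, and the part of width was not tested here either. Of the 10 gained sites, 6 also held a p52 site and were the 6 sites named above.

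Sequence matches were counted in windows of 200 bp centred on each site's strongest summit. The κB consensus, 10 bases long, was present at 39 gained sites (3.69%, interval 2.63 to 5.005%), at 1.27% of lost sites (interval 0.613 to 2.33%), at 2.72% of constant sites (interval 2.22 to 3.29%) and at 2.28% of all 54315 merged sites outside promoters. The AP-1 sequence TGANTCA was present at 8.51% of gained, 12.4% of lost, 10.9% of constant and 8.31% of all such sites. The ETS sequence CCGGAAG was present at 1.13%, 0.510%, 2.98% and 0.991%. Both strands were read, and the median GC content of these windows was 46.5% for gained, 41.5% for lost and 50.5% for constant sites. Around the summits of p52 peaks the κB consensus was far more frequent, at 20 of the 31 sites shared with gained RNA Pol II sites (64.5%, interval 45.4 to 80.8%) and at 72.7% of all 2299 p52 sites outside promoters.

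As a check of the cells, 5 of the 9 listed glioma and glial markers (*VIM*, *CD44*, *FN1*, *EGFR* and *NES*) were at a median of 94.2 CPM or more over the 12 RNA-seq libraries, while *GFAP*, *S100B*, *SOX2* and *OLIG2* were at a median of 1.16 CPM or less. The summed level of the list was 11664 to 13632 CPM in untreated, 18362 to 19927 in TWEAK-treated, 18107 to 20454 in *ETS1* KD and 14117 to 16645 in *NFKB2* KD libraries. *VIM* made up most of this sum (median 14086 CPM), so it does not describe the list as a group. Of its 6 tested genes, 1 rose and 0 fell with TWEAK (edgeR), against 1.55% raised of all genes tested. The 10 markers of other cell types summed to 14.99 to 23.8 CPM in all libraries, of which *SYT1* made up most (median 15.3 CPM), and *RBFOX3* was at 0 in each. None of the markers was the host of or nearest gene to a gained site, and the part of these levels in the RNA results was not tested. Total counts were between 28384201 and 40192606 per RNA-seq library.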

How the data were processed

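ChIP-seq (20 libraries, for RNA Pol II, p52 or ETS1) and polyA RNA-seq (12 libraries) of U-87 MG cells were used. Samples were grouped by their labels, and 3 input samples were not analysed here. The authors mapped RNA-seq reads to hg38 with STAR and deposited whole-number counts per gene from featureCounts. Tool versions and the strand setting of the counting are not given in the sources used here. For ChIP-seq the authors used Bowtie2 on hg38 and MACS2 with input subtraction, and removed blacklisted regions. They deposited 1 peak list per library, with the fold enrichment ratio and −log10 of the q-value at each summit, which served here to describe and order peaks and as a filter. The ChIP-seq depth is unknown.

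Overlapping peaks (1 bp or more) were merged, and sites were placed with GENCODE release 44 (hg38), in Python 3.11.15. Shares carry exact (Clopper-Pearson) 95% intervals, which cover counting error only. Counts were tested with edgeR 4.0.16 in R 4.3.3 (filterByExpr, TMM, quasi-likelihood test, 4 groups in 1 model, Benjamini-Hochberg adjustment over 16879 genes), with DESeq2 1.42.0 as an alternative. p-values measure the spread between the 3 replicates, which the study calls biological. CPM values are TMM-normalised. Named sites and genes followed a rule: the 10 strongest members, up to 15 with the highest p52 q-values, the 10 hosts with most members, the 10 raised and 6 lowered hosts with the largest change, and listed genes. The members and lists were chosen with earlier results of these data known. On simulated counts for 16879 genes with 200 changed, edgeR found 63% of 2-fold and 16% of 1.5-fold changes in the TWEAK comparison, with 2.47% false calls. In the *ETS1* KD comparison it found 64% and 11%, with 8.54% false calls. In the *NFKB2* KD comparison it found 61% and 20%, with 4.71% false calls. The simulated spread followed expression level alone, without the spread of single genes. These rates therefore need not hold for genes with a larger spread. The merging was also tested on simulated peaks. Sequences were read from hg38 with pysam 0.24.0. RNA-seq replicates of a group differed by more than sampling noise. Whether ChIP-seq replicates came from separate cultures is not stated. Of the 10 strongest members, 1 is not reported here.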

Additional observations from a re-analysis of the deposited data

How the results depend on the processing

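The number of gained sites was 1058, 282 when only peaks with −log10 q of 5 or more were kept, and between 1534 and 18968 when 1 control RNA Pol II library was left out. Leaving one out removes a condition from the rule, and gave 2840 sites without untreated replicate 2, 6390 without TWEAK replicate 1 and 18968 without TWEAK replicate 2, where 0.955% and 0.722% had a p52 site for the latter 2. With that filter, the share in a gene body was 73.0%, with a p52 site 5.32%, with an ETS1 site 2.48% and with a peak in *NFKB2* KD 44.3%, and 19, 6 and 0 host genes were called for TWEAK, *ETS1* KD and *NFKB2* KD. With equal numbers of the strongest peaks the gene-body share was 75.7%, p52 4.43%, *ETS1* KD 58.1% and *NFKB2* KD 45.5%, and over all 8 RNA Pol II lists in equal numbers the KD shares were 63.3% and 55.7% of 210 sites. Requiring both KD lists gave 20.98% and 2.27%. A p52 peak in either TWEAK library gave 6.90%, and the κB share was 6.99% in 400 bp and 9.74% over whole sites.

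Leaving out 1 library gave 76.1 to 80.8% in gene bodies, 0.722 to 6.81% with p52, 0.279 to 1.56% with ETS1, 13.1 to 64.6% with a peak in *ETS1* KD, 3.88 to 58.1% in *NFKB2* KD and 2.21 to 3.49% with κB. It gave 17 to 31 host genes called for TWEAK and 9 to 10 for *ETS1* KD. DESeq2 called 23 hosts in *ETS1* KD and 2 in *NFKB2* KD, and without a filter on low counts edgeR called 24 and 9. The other causes of these shifts were not tested. Of 500 values of single called host genes under the alternatives, 395 kept their call, 105 lost it and 0 turned direction.

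Whether replicate numbers pair the RNA-seq samples is not settled. The correlation of same-numbered deviations was -0.30 to 0.49 (median 0.16), against -0.56 to 0.49 (median -0.09) for different numbers. Of the 12 libraries, 7 were nearest to their own number. With the replicate number as a block, 44, 14 and 1 hosts were called, against 35, 14 and 1.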

Other observations

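Nearest genes of the intergenic gained sites were looked at in the same way as host genes. The 228 sites had 212 different nearest genes by start site, of which 98 were tested for RNA. With TWEAK 6 of them rose and 0 fell (edgeR), with a median log2 change of 0.13, against 1.55% raised and 1.53% lowered of all genes tested and a median of 0.02. DESeq2 called 11 raised and 0 lowered, and at an unadjusted p under 0.05 edgeR had 14 higher and 2 lower. In both KD comparisons edgeR called 0 raised and 0 lowered. At an unadjusted p under 0.05 it had 6 higher and 3 lower in *ETS1* KD and 1 higher and 9 lower in *NFKB2* KD, and DESeq2 called 1 raised and 0 lowered in *ETS1* KD and 0 of either in *NFKB2* KD. The median was 0.01 in *ETS1* KD and -0.09 in *NFKB2* KD.

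Chromosome 18 held 2 gained sites, 0.291% of its merged sites outside promoters, where the other chromosomes had between 1.37% and 2.49%. Of all gained sites, 258 (24.4%) lay within 10000 bp of another gained site.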
